A study of Litchi chinensis with 18 samples.

Results

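The carpels of functionally female litchi flowers (F-carpel) were compared with the carpels of those functionally male flowers whose rudimentary pistil is obvious (m-carpel). Both organs came from full-bloom flowers of 'Feizixiao' litchi (Litchi chinensis) grown in an orchard, and their labels name no treatment for either type. They were chosen by their labels, in which a capital F and a lower-case m stand for the flower types, and they make up 6 of the 18 RNA-seq libraries, with 3 libraries for each organ. The other 12 libraries are 3 from the carpels of functionally male flowers with an unobvious pistil (M-carpel) and 9 from the stamens of the 3 flower types, and they served here for the spread of the model and for levels given beside a result. A detached F-carpel holds ovary, style, stigma and ovule tissue together, whereas the paper describes the rudimentary pistil of m flowers as without style and stigma. The organs compared therefore differ in the tissues they hold. In such bulk samples a smaller number of cells of a type and less RNA per cell cannot be told apart. The paper reports triplicate sampling from differently facing parts of the tree and does not give the number of trees. The labels do not say whether the 3 libraries of an organ came from separate trees, so the tests measure the spread between these samples.

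Litchi carries female and male flowers on the same inflorescence, and a flower becomes functionally male when its pistil stops developing although the organ was started. Carpel identity in flowering plants is set by MADS-box transcription factors of class C together with class E partners, and ovule identity by class D genes. After pollination a carpel that stays on the plant grows by cell division into a fruit, while an unused carpel ages and is shed, steps in which auxin, gibberellin, cytokinin and ethylene are known to take part.

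The deposited table gave raw read counts for 37401 gene models, which were summed to 34024 loci. The F-carpel libraries held 30078497 to 31866235 counts and the m-carpel libraries 27156063 to 31351088. Levels are given below as CPM, the reads of a locus per fixed number of reads in the library, scaled by TMM factors, which correct for a few very abundant transcripts taking up reads. In a library 3 counts, the floor used here, correspond to 0.094 to 0.11 CPM before scaling by TMM factors, counting error only. Between libraries of the same organ the correlation of log2 CPM across loci was 0.977 to 0.981, and between the organs it was 0.813 to 0.815. The 10 most abundant loci held 2.64 to 2.79% of the counts in F-carpel, against 7.66 to 8.76% in m-carpel.

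A locus was called when the edgeR quasi-likelihood test gave a false discovery rate (FDR) below 0.01 and the log2 fold change, F-carpel minus m-carpel, was at least 1 in size. Of 24666 loci tested, 9451 were called, which is 38.3%. Of these, 5081 were higher in F-carpel (20.6% of the tested loci) and 4370 lower (17.7%). Fold changes of at least 4 were found for 3070 of the higher and 2192 of the lower loci, and log2 fold changes of at least 5 for 1116 and 425. The libraries of the organs did not overlap at 9385 of the called loci, nor at 71.7% of all tested loci. In total 492 called loci had 0 counts in every m-carpel library and 183 had 0 counts in every F-carpel library. Scaling by library totals in place of TMM moved the median of all loci by 0.20 on the log2 scale and gave 5962 higher and 3584 lower loci, so the values below are relative to the TMM scale. No description from Swiss-Prot was found for 2077 of the called loci.

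**Figure D1:**
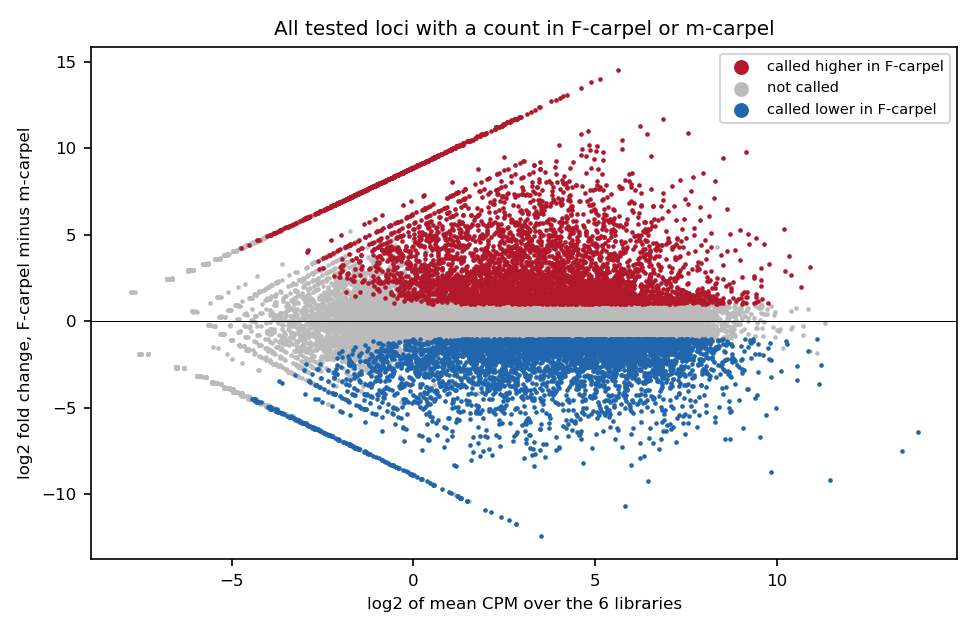
Each point is a locus with a count in F-carpel or m-carpel. The x axis gives the log2 of the mean CPM over the 6 libraries and the y axis the log2 fold change, F-carpel minus m-carpel. Red points (5081) were called higher in F-carpel, blue points (4370) lower, and grey points were not called. The straight upper and lower edges are loci with 0 counts in every library of one organ, whose fitted fold change is no measure of size.

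Most functional classes held loci called in each direction, and a few were uneven. Among the 24 eukaryotic orthologous group (KOG) classes with at least 50 tested loci, translation and ribosomal structure had 185 of 664 loci higher and 25 lower in F-carpel, with a median log2 fold change of 0.62. Replication, recombination and repair had 109 of 386 higher and 29 lower, and the cytoskeleton 94 of 273 higher and 42 lower. The lower end of the order was held by inorganic ion transport, with 83 of 475 higher and 138 lower and a median of -0.43, and by signal transduction, with 216 of 1501 higher and 417 lower and a median of -0.39. The median over all tested loci was 0.00.

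The gene lists described next were drawn from the Swiss-Prot descriptions with earlier results of these data known, so their counts are descriptions to be read against the 20.6% and 17.7% of all loci. Among the lists with the largest share higher were histones (80%), cell cycle genes (63.7%) and cytosolic ribosomal proteins (55.1%), and among those with the largest share lower were tapetum and pollen genes (55.0%), ethylene genes (46.9%) and the NAC, WRKY and ERF factors (41.0%).

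**Figure D2:**
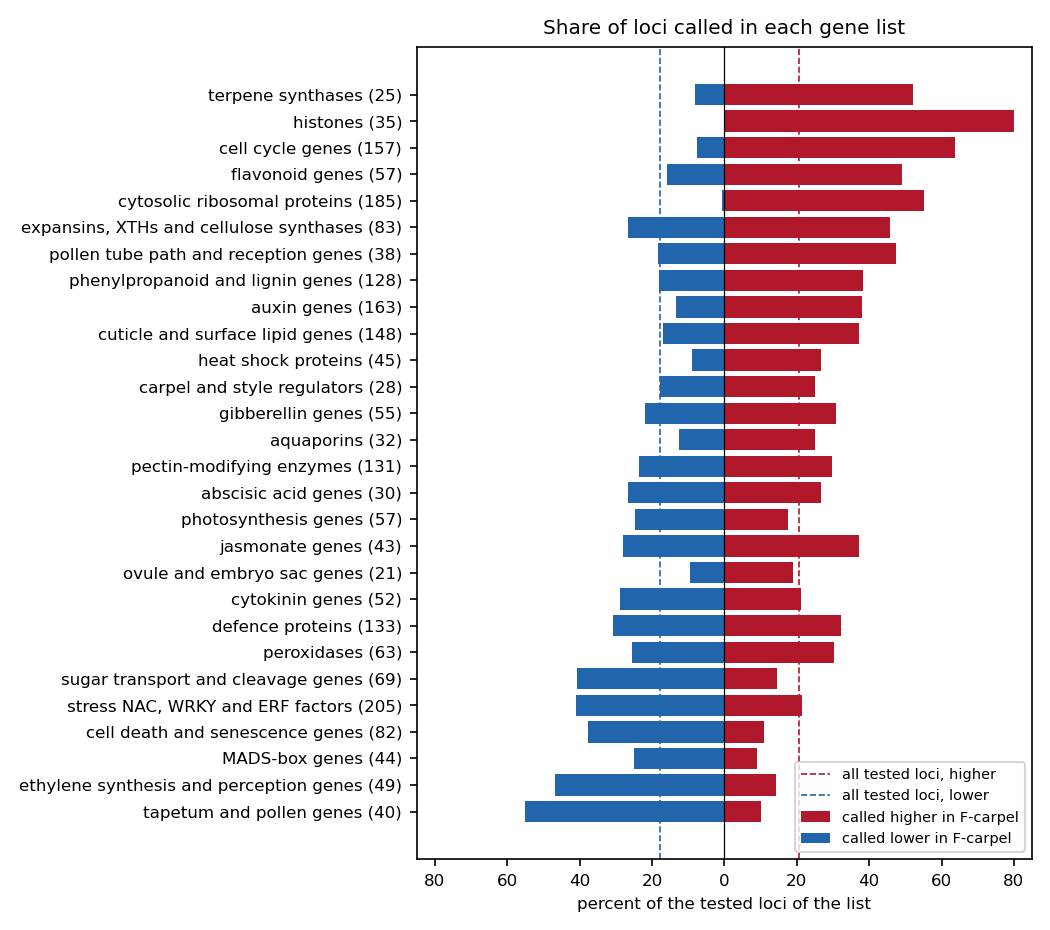
Bars give the percent of the tested loci of each gene list called higher in F-carpel (red, to the right) or lower in F-carpel (blue, to the left), and the number of tested loci is in parentheses. Dashed lines mark all tested loci, 20.6% higher and 17.7% lower. Lists are ordered by their median log2 fold change, from 4.21 for terpene synthases to -1.29 for tapetum and pollen genes.

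Of the MADS-box loci, 44 passed the filter on low counts, of which 4 were higher in F-carpel and 11 lower, with a median of -0.87. The share called, 34.1%, was close to the 38.3% of all loci. Of the 11 lower loci, 5 (LcMADS25, LcMADS46, LcMADS47, LcMADS49 and LcMADS78) had at most 2.05 CPM in any of the 6 carpel libraries compared, and a fit on the 6 libraries alone called 6 lower. LcMADS46 and LcMADS47 carry the same description, AGL104, and reads may have been split between them. Their means were 36.5 and 39.5 CPM in F-stamen and 82.1 and 89.7 CPM in m-stamen.

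The class B genes, which specify petals and stamens together with other classes, did not behave alike. LcMADS45 (LcAP3-2, LITCHI010203, chromosome 8, 3014197 to 3016669) had 64.9, 70.4 and 68.4 CPM in F-carpel, against 4.48, 3.97 and 4.18 CPM in m-carpel. The libraries of the organs were far apart and the log2 fold change was 4.01 ± 0.16 (SE; FDR = 1.97e-13), the largest rise among the called members. Its mean was 2.90 CPM in M-carpel and at most 9.39 CPM in any of the stamens. LcMADS75 (LcAP3-1, LITCHI006530, chromosome 11, 2105473 to 2109021) had 107, 120 and 118 CPM in F-carpel, against 64.4, 58.7 and 61.9 CPM in m-carpel, and its log2 fold change of 0.90 ± 0.05 was below the minimum size although the libraries did not overlap. LcMADS50 (LcPI) was low, at 2.0 to 4.08 CPM in F-carpel and 5.15 to 6.59 CPM in m-carpel, against means of 551 CPM in F-stamen and 647 CPM in m-stamen. No source used here names the build behind the chromosome positions.

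The starts of the coding sequences of the AP3-like genes, as listed by the study, are set out because these close relatives had unlike levels. Bases 1 to 90 from the start codon cover the beginning of the MADS domain, and capitals mark the 16 positions at which they differ. Of these, 11 are at the third base of one of the 30 codons.
LcMADS45: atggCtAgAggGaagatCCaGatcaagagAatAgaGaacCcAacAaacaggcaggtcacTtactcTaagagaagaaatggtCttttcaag
LcMADS75: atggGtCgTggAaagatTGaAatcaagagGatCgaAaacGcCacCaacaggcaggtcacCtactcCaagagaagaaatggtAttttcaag

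Class C and D genes were present in the carpels of either type. LcMADS65 (LcAG), the class C gene for stamen and carpel identity, had 234, 233 and 230 CPM in F-carpel, against 350, 346 and 319 CPM in m-carpel. The organs did not overlap, and the log2 fold change of -0.54 ± 0.04 was below the minimum size. LcMADS11 (LcSHP), related to the Arabidopsis genes of valve margins and ovules, differed little, with 55.1, 65.4 and 62.3 CPM in F-carpel and 51.0, 48.2 and 50.6 CPM in m-carpel. LcMADS51 (LcSTK), the class D gene of ovule identity, had 44.7, 42.6 and 46.2 CPM in F-carpel, against 12.9, 12.5 and 12.3 CPM in m-carpel. It rose 3.53-fold in F-carpel (log2 fold change 1.82 ± 0.17, FDR = 4.64e-08), and its mean was 1.76 CPM in M-carpel and at most 1.12 CPM in stamens.

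The class E genes, whose proteins join the other classes in tetramers, differed in direction. LcMADS91 (LcSEP3) had 191, 201 and 185 CPM in F-carpel, against 861, 876 and 873 CPM in m-carpel, and fell by 2.18 ± 0.04 on the log2 scale (FDR = 8.84e-18). LcMADS73 (LcSEP4) had 57.8, 58.2 and 55.3 CPM in F-carpel, against 211, 197 and 211 CPM in m-carpel, a fold change of 3.61 lower. LcMADS94 (LcSEP2) was the exception, with 9.32, 9.22 and 10.8 CPM in F-carpel, against 3.83, 3.01 and 3.35 CPM in m-carpel (log2 fold change 1.52 ± 0.39, FDR = 0.00216). This last call was lost without m-carpel replicate 2, when the log2 fold change was 1.44, and when gene models were tested in place of loci. LcMADS100 (LcSEP1) had 261 to 273 CPM in F-carpel and 275 to 285 CPM in m-carpel, a difference not past the test (FDR = 0.30).

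The first 90 coding bases of LcMADS94, which rose, and LcMADS73, which fell, are shown for the same reason. They differ at 16 positions, in capitals, of which 15 are at the third base of a codon.
LcMADS94: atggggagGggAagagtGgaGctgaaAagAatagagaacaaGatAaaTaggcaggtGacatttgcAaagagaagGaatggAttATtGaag
LcMADS73: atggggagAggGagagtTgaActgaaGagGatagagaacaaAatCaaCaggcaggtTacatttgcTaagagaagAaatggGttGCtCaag

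LcMADS95 (LcAP1), the class A gene, was low in either carpel at 3.03 to 3.75 CPM. LcMADS72, described as an AGL8 (FRUITFULL) homolog, a gene of fruit valve growth in Arabidopsis, had 128, 124 and 128 CPM in F-carpel, against 28.7, 27.6 and 28.2 CPM in m-carpel, and rose 4.50-fold (log2 fold change 2.17 ± 0.09, FDR = 3.87e-13). The match of LcMADS72 in the NR protein database was a litchi APETALA1, and the study lists it in the AP1/FUL group. It may therefore not be a FRUITFULL gene. Outside the classes, the AGL15-like LITCHI004481 had 26.7 to 32.0 CPM in F-carpel and 187 to 197 CPM in m-carpel, the AGL6-like LcMADS9 7.03 to 10.3 CPM and 34.1 to 38.7 CPM, and the AGL18-like LcMADS42 2.14 to 2.55 CPM and 12.1 to 15.1 CPM. All of these fell, by 2.67, 2.11 and 2.55 on the log2 scale. The SVP-like LcMADS81 fell by 1.11, which was under the minimum size when libraries were scaled by their totals (-0.89).

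**Figure D3:**
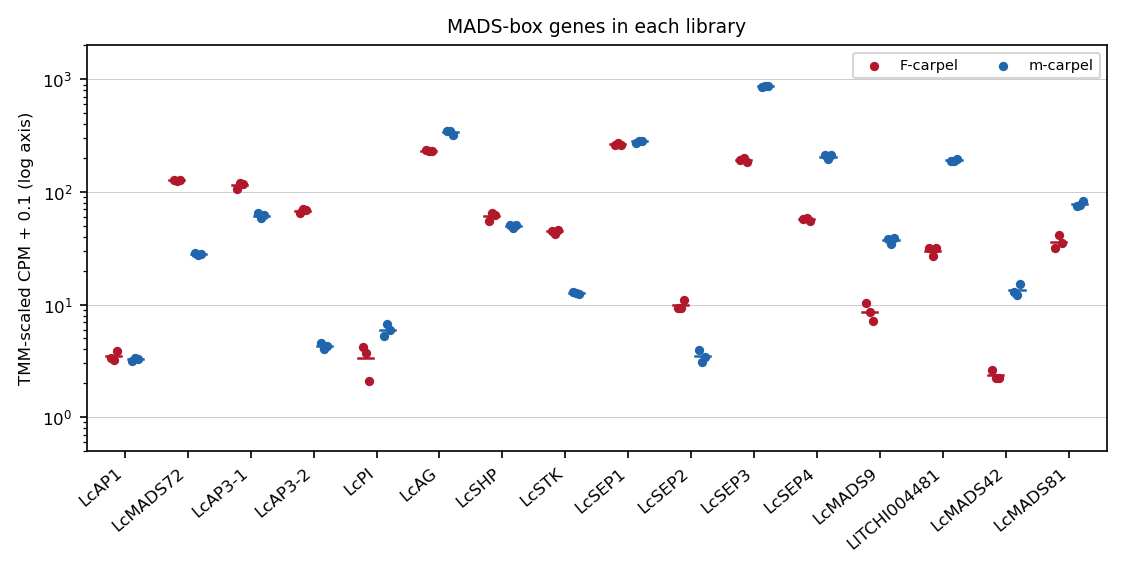
Points are libraries and short lines their mean, with F-carpel in red on the left and m-carpel in blue on the right of each gene. The y axis is CPM plus 0.1 on a log scale. LcAP3-2, LcMADS72, LcSTK and LcSEP2 were called higher in F-carpel, while LcSEP3, LcSEP4, LcMADS9, LITCHI004481, LcMADS42 and LcMADS81 were called lower. The libraries of the organs did not overlap for any of these. They also did not overlap for LcAP3-1, LcSHP, LcPI, LcAG and LcSEP1, which were not called.

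Other regulators of carpel form were called in each direction. Of 28 tested carpel and style regulators 7 rose (25.0%) and 5 fell (17.9%) in F-carpel. These shares were close to the 20.6% and 17.7% of all tested loci. CRABS CLAW (CRC, LITCHI005346), a YABBY factor of carpel and nectary growth, had 14.9, 19.9 and 16.6 CPM in F-carpel, against 2.42, 1.49 and 0.761 CPM in m-carpel (log2 fold change 3.43 ± 0.23, FDR = 2.87e-10). CRC was not confined to carpels of female flowers, as its mean was 33.9 CPM in M-carpel, 14.6 CPM in F-stamen and 63.2 CPM in M-stamen. The YABBY1-like loci LITCHI025506 and LITCHI025508, of a family that sets the lower side of lateral organs, had 126 to 187 and 119 to 137 CPM in F-carpel, against 2.29 to 5.76 and 2.21 to 4.48 CPM in m-carpel. They carry the same description and may have shared reads. Another YABBY1-like locus, LITCHI022829, was below the minimum size, at 183 to 202 CPM in F-carpel and 118 to 124 CPM in m-carpel. The boundary gene CUP-SHAPED COTYLEDON 3 rose by a log2 fold change of 3.74, WIP3 by 1.60 and SUPERMAN by 4.15, each at under 10 CPM in F-carpel. YABBY4 was called at 3.94, but this call was lost without any of the 6 libraries in turn. The 5 that fell are known in Arabidopsis as genes of style, stigma and transmitting tract. SPATULA had 27.2, 29.8 and 26.9 CPM in F-carpel, against 135, 138 and 151 CPM in m-carpel, and NGATHA1 6.96, 7.88 and 6.92 CPM, against 46.1, 45.3 and 39.9 CPM. HECATE1 was near the floor in F-carpel, at 0.0544, 0.654 and 0.139 CPM, against 11.4, 10 and 11.6 CPM in m-carpel. SHI RELATED SEQUENCE 5 and SHORT INTERNODES fell by 1.92 and 1.22, and the call of SHORT INTERNODES was lost with library totals and on either FPKM scale.

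Genes read as ovule and embryo sac markers were mostly low. Of 59 listed loci 35 had no count in the 6 libraries, 21 were tested, 4 rose and 2 fell. The share called was 28.6%, against 38.3% of all tested loci. The list also holds the WUSCHEL-related homeobox genes, many of which act outside the ovule. The risers were LcSTK, WOX1, WOX3 and WOX4, and the others called, WOX8 and WOX11, fell. WOX4, a cambium gene in Arabidopsis, had 13.2, 15.0 and 13.3 CPM in F-carpel and no count in m-carpel, at least 404-fold higher when 3 counts over the m-carpel libraries are taken as the floor. The egg cell protein EC1.1 (LITCHI011491) had 0.535 to 0.723 CPM in F-carpel and 0 to 0.354 CPM in m-carpel, which was not past the test (FDR = 0.0727). LITCHI020554 and LITCHI022403, described as MYB98, a synergid factor, had at most 0.922 CPM in any of the 6 libraries. Their matches in the NR protein database were MYB118 and MYB119, so they may not be the synergid factor.

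Cell division genes were mostly higher in F-carpel. Of 157 tested cell cycle genes 100 rose and 12 fell, with a median log2 fold change of 2.33. The MCM2 to MCM7 proteins form the ring that opens DNA at replication origins, and all 6 loci rose, with 107 to 170 CPM in F-carpel, against 1.38 to 10.5 CPM in m-carpel. Their summed level with 1 related locus was 858 to 879 CPM in F-carpel and 35.9 to 37.2 CPM in m-carpel. MCM6 had 136, 131 and 126 CPM in F-carpel, against 1.38, 1.42 and 2.17 CPM in m-carpel (log2 fold change 6.31 ± 0.23, FDR = 8.58e-14). The families below were marked out within the list after the values were seen.

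Cyclins carry cells through the division cycle, with D types at its start and B types at mitosis. Of 12 tested D-type cyclins 9 rose and 1 fell, and their summed level was 605 to 651 CPM in F-carpel, against 35.2 to 41.5 CPM in m-carpel. CYCD3-1 (LITCHI001557) was nearly silent in m-carpel, with 0.161, 0.331 and 0.228 CPM, against 186, 194 and 179 CPM in F-carpel (log2 fold change 9.57 ± 0.30, FDR = 7.62e-15). CYCD1-1 (LITCHI001437) had 65.4 to 68.1 CPM in F-carpel and 0.0644 to 0.647 CPM in m-carpel. Of 7 B-type cyclins 6 rose and none fell, and both B-type cyclin-dependent kinases rose, CDKB2-2 to 77.7 to 91.6 CPM in F-carpel, against 2.36 to 3.64 CPM in m-carpel. Of 70 kinesins, the motors of the spindle and the cell plate, 47 rose and 4 fell. NACK1, a kinesin needed to build the plate, had 55.1 to 57.6 CPM in F-carpel and 0.193 to 1.14 CPM in m-carpel. Members that act as brakes were mixed, since of 8 inhibitors of the SMR family 3 rose and 3 fell, among them SMR3 (0.297 to 0.834 CPM in F-carpel, 5.99 to 6.73 CPM in m-carpel) and SMR6.

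Histones, which package newly made DNA, showed the most even shift. Of 35 tested histone loci 28 rose and none fell at an FDR below 0.01 with the minimum size, although 1 (LITCHI006496, histone H1, -0.23) was lower without that minimum. Histone H3.2 (LITCHI007255), a form deposited during replication, had 346, 393 and 324 CPM in F-carpel, against 2.64, 2.55 and 2.89 CPM in m-carpel (log2 fold change 7.04 ± 0.15). The replication-independent histone H3.3 (LITCHI007272) was not called, with a log2 fold change of 0.36. The histone H4 loci together had 777 to 960 CPM in F-carpel and 77.4 to 88.1 CPM in m-carpel. Histone copies are nearly identical, so reads may have been split among them, and the sums are the firmer values.

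Cytosolic ribosomal proteins moved less per gene but broadly, with 102 of 185 loci higher, 1 lower and a median of 1.07. The acidic protein P0 (LITCHI018333) had 844, 1100 and 773 CPM in F-carpel, against 165, 145 and 153 CPM in m-carpel. Among the genes with large rises, picked for their size or rank and not as a group, were several with known roles in growth. The AINTEGUMENTA-like loci LITCHI007109 and LITCHI010784, of a factor that extends cell division in floral organs, had 95.5 to 105 and 134 to 142 CPM in F-carpel, against 0.266 to 0.708 and 0.530 to 0.989 CPM in m-carpel. CYP78A5 (LITCHI028690, KLUH), a cytochrome P450 that sets organ and seed size in Arabidopsis, had 233, 247 and 226 CPM in F-carpel and 0.0966, 0.0993 and 0 CPM in m-carpel. SPEECHLESS, the factor that starts the stomatal lineage, had 64.8 to 68.9 CPM in F-carpel and at most 0.0993 CPM in m-carpel.

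**Figure D4:**
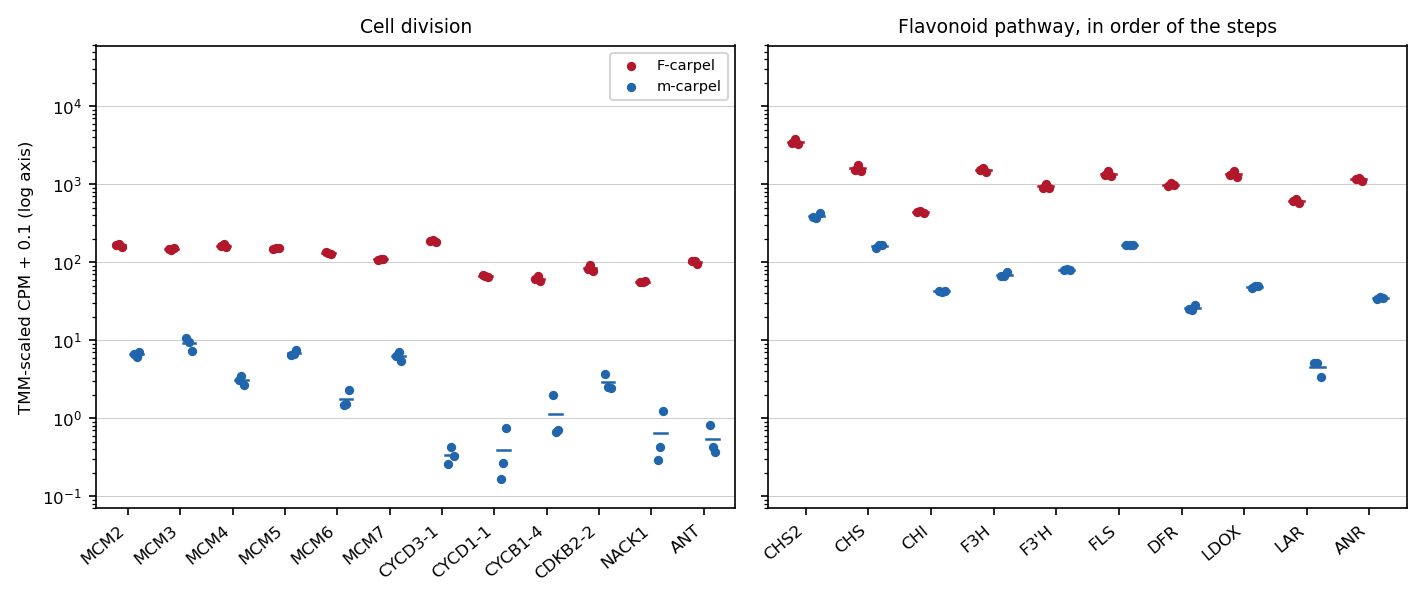
CPM plus 0.1 on a log axis for each library, F-carpel in red on the left and m-carpel in blue on the right of each gene, short lines are means. Left panel, cell division genes and ANT (LITCHI007109). Right panel, enzymes of the flavonoid pathway from chalcone synthase to the reductases of flavan-3-ol synthesis. In every gene drawn the 3 F-carpel libraries lay above the 3 m-carpel libraries.

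The pathway from chalcones to flavan-3-ols, the units of condensed tannins, had a locus higher in F-carpel at each step named here. Of 57 tested flavonoid genes 28 rose and 9 fell, with a median of 1.75, and 4 of 6 chalcone synthases rose and none fell. Chalcone synthase 2 (LITCHI015108), which makes the entry compound, had 3340, 3780 and 3280 CPM in F-carpel, against 385, 373 and 426 CPM in m-carpel (log2 fold change 3.13 ± 0.06, FDR = 4.76e-18). In FPKM, a level per transcript length, it averaged 1680 ± 95.2 in F-carpel (SD, n = 3) and 162 ± 8.76 in m-carpel, and was among the 5 most abundant loci of F-carpel. The next enzymes rose 10.3-fold (chalcone isomerase, LITCHI027959), 22.2-fold (flavanone 3-hydroxylase, LITCHI006477) and 11.7-fold (flavonoid 3'-hydroxylase, LITCHI023381). Dihydroflavonol reductase had 951, 1030 and 976 CPM in F-carpel, against 25.1, 24.3 and 27.8 CPM in m-carpel. Leucoanthocyanidin dioxygenase rose 27.7-fold in F-carpel.

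At the end of the pathway leucoanthocyanidin reductase and anthocyanidin reductase make flavan-3-ols. Leucoanthocyanidin reductase (LITCHI023217) had 604, 651 and 580 CPM in F-carpel, against 5.02, 4.97 and 3.31 CPM in m-carpel (log2 fold change 7.10 ± 0.17, FDR = 1.99e-16), and its mean in M-carpel was 211 CPM. Anthocyanidin reductase (LITCHI029356) had 1160, 1200 and 1100 CPM in F-carpel and 33.4, 35.9 and 35.0 CPM in m-carpel. Among the 9 that fell was another locus described as flavanone 3-hydroxylase (LITCHI001700). It had 0, 0.297 and 0.222 CPM in F-carpel, against 23.8, 24.3 and 22.4 CPM in m-carpel. Its NR match was DMR6-LIKE OXYGENASE 1, whereas that of LITCHI006477 was flavanone 3-hydroxylase, so it may be a different enzyme. The others that fell included glucosyltransferases of anthocyanidins, each at under 10 CPM.

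Lignin and wall genes were mixed by member. Of 128 phenylpropanoid and lignin genes 49 rose and 23 fell. Laccases, which couple lignin units, had 16 of 29 loci higher and 1 lower, yet the summed level was 2740 to 2890 CPM in F-carpel and 3350 to 3400 CPM in m-carpel. The 1 laccase that fell, LAC14 (LITCHI011558), had 0.489, 0.951 and 0.473 CPM in F-carpel, against 163, 149 and 141 CPM in m-carpel. A hydroxycinnamoyltransferase of lignin synthesis (LITCHI021287) fell by 7.0 on the log2 scale. Expansins loosen walls during growth, and of 25 tested 17 rose and 3 fell. EXPA15 had 114, 124 and 125 CPM in F-carpel, against 0.258, 0.563 and 0.152 CPM in m-carpel, while the expansin-like EXLB1 had 15.5, 16.4 and 17 CPM in F-carpel, against 393, 347 and 385 CPM in m-carpel. EXLB1 was also low in M-carpel, at 6.63 ± 1.79 CPM (SD, n = 3).

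Fasciclin-like arabinogalactan proteins, surface glycoproteins of growing and transmitting tissues, had 10 of 16 loci higher and 3 lower, with 988 to 1180 CPM in F-carpel and 177 to 201 CPM in m-carpel in sum. Arabinogalactan protein 31 had 53.5 to 62.7 CPM in F-carpel and at most 0.0662 CPM in m-carpel. The FERONIA-like receptor kinases LITCHI019358 and LITCHI019359, of a family that acts in pollen tube reception, fell by 2.95 and 2.33 on the log2 scale. Of 17 ketoacyl-CoA synthases, which elongate the fatty acids of waxes, 10 rose and 1 fell, and of 82 GDSL esterases 31 rose and 11 fell, with 1780 to 1970 CPM in F-carpel and 488 to 508 CPM in m-carpel in sum.

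Auxin carriers and repressors were mostly higher in F-carpel. Of 163 tested loci 62 rose and 22 fell, with a median of 0.70. All 5 influx carriers of the AUX/LAX family rose, and their summed level was 223 to 247 CPM in F-carpel, against 19.1 to 21.4 CPM in m-carpel. LAX5 (LITCHI002002) had 93.5, 105 and 95.9 CPM in F-carpel and no count in m-carpel, at least 2870-fold higher over the same floor. Among efflux carriers, PIN6 had 57.5 to 67.4 CPM in F-carpel, against 0.114 to 0.580 CPM in m-carpel. PIN3 went the other way, with 69.9, 79.3 and 69.3 CPM in F-carpel and 320, 310 and 318 CPM in m-carpel.

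Enzymes of auxin synthesis differed by locus. Of 7 tested YUCCA monooxygenases 2 rose, 1 fell and 4 were not called, and loci of the same description, YUCCA2, were among the rising and the falling. TAR2 had 14.2 to 16.1 CPM and YUCCA6 22.6 to 31.5 CPM in F-carpel, against at most 0.463 and 0.805 CPM in m-carpel. Of 28 Aux/IAA repressors, genes that auxin induces, 21 rose and 1 fell. The GH3 enzymes, which conjugate and so inactivate auxin, had 146 to 151 CPM in F-carpel and 733 to 755 CPM in m-carpel in sum, although 4 rose and 2 fell of 10. GH3.6 (LITCHI013323) had 27.1, 30.5 and 27.6 CPM in F-carpel, against 383, 382 and 374 CPM in m-carpel. ARG2 (LITCHI026465), described as induced by auxin, had 68.1 to 73.0 CPM in F-carpel and 1290 to 1400 CPM in m-carpel. Its NR match was SENESCENCE-ASSOCIATED GENE 21.

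Ethylene genes were more often lower than higher in F-carpel. Of 49 tested loci 7 rose and 23 fell, with a median of -1.20, and 15 fell among loci with a mean of 5 CPM or more. Many of these are described as homologs of ACC oxidase, a match that does not show an enzyme of ethylene synthesis, and of 24 such homologs 12 fell and 3 rose. All 4 tested loci described as ACC oxidases, the final enzyme of synthesis, fell. ACO1 (LITCHI021364) had 104, 120 and 109 CPM in F-carpel, against 581, 597 and 641 CPM in m-carpel (log2 fold change -2.45 ± 0.06, FDR = 2.05e-16). ACC synthases, the step before, did not follow, since of 6 tested 3 rose and 1 fell, and all were low. ACS3 (LITCHI012815) had 8.86, 13.8 and 9.78 CPM in F-carpel and 0.290, 0.497 and 0.609 CPM in m-carpel.

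EIN3 is the transcription factor at the end of ethylene signalling. Of 4 tested loci described as EIN3 or EIN3-like 2 fell and the others were not called. The loci that fell, LITCHI027025 and LITCHI023837, had 154 to 161 and 156 to 191 CPM in F-carpel, against 758 to 784 and 571 to 598 CPM in m-carpel, and fell by 2.28 ± 0.05 and 1.77 ± 0.06 on the log2 scale. EBF1, which marks EIN3 for degradation and is itself induced by ethylene in Arabidopsis, had 139 to 157 CPM in F-carpel and 447 to 452 CPM in m-carpel. Of 5 receptors only ETR2 was called, and it rose, with 17.2 to 19.6 CPM in F-carpel and 2.42 to 3.23 CPM in m-carpel. The more abundant receptor ETR1 had 198 to 214 CPM in F-carpel and 197 to 201 CPM in m-carpel, a difference not past the test.

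Gibberellin genes were called in each direction, with 17 of 55 higher and 12 lower. In synthesis, 4 of 8 loci for the early ent-kaurene and ent-kaurenoic acid steps rose and none was called lower, and of 7 tested 20-oxidases 3 rose and 1 fell. The 3-oxidase LITCHI017070, which makes the active hormone, had 0.788, 1.87 and 1.53 CPM in F-carpel, against 123, 124 and 134 CPM in m-carpel (log2 fold change -6.51 ± 0.16, FDR = 3.98e-16). The 2-oxidases, which inactivate it, fell too, with 5 of 9 lower and none called higher, and 9.51 to 10.3 CPM in F-carpel, against 120 to 134 CPM in m-carpel in sum. Of 4 receptors 1 rose and 2 fell, and GID1B, the most abundant in m-carpel, had 95.1 to 98.5 CPM in F-carpel and 726 to 740 CPM in m-carpel. Of 12 small GASA and snakin peptides 7 rose and 2 fell, yet snakin-2 (LITCHI010127), with 325 to 361 CPM in F-carpel and 4110 to 4410 CPM in m-carpel, set the sum. Snakin-1 had 144 to 162 CPM in F-carpel and at most 0.161 CPM in m-carpel.

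The cytokinin receptors named here went in opposite directions. AHK4 had 155, 155 and 147 CPM in F-carpel, against 10.6, 9.93 and 10.8 CPM in m-carpel, whereas AHK3 had 140, 135 and 149 CPM in F-carpel, against 737, 743 and 701 CPM in m-carpel. The log2 fold changes were 3.86 ± 0.08 and -2.36 ± 0.05. Of 8 cytokinin dehydrogenases, which degrade the hormone, 4 fell and 1 rose. Jasmonate genes were mixed, with 16 of 43 higher and 12 lower. The lipoxygenase LOX2.1 (LITCHI024086) had 181, 198 and 174 CPM in F-carpel and 0.799 to 1.03 CPM in m-carpel. Loci described as the jasmonate factor MYC2 went in opposite directions, LITCHI026809 higher and LITCHI020425 lower in F-carpel. The NR match of LITCHI026809 was bHLH14, so it may be a different factor. Of 30 abscisic acid genes 8 rose and 8 fell.

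**Figure D5:**
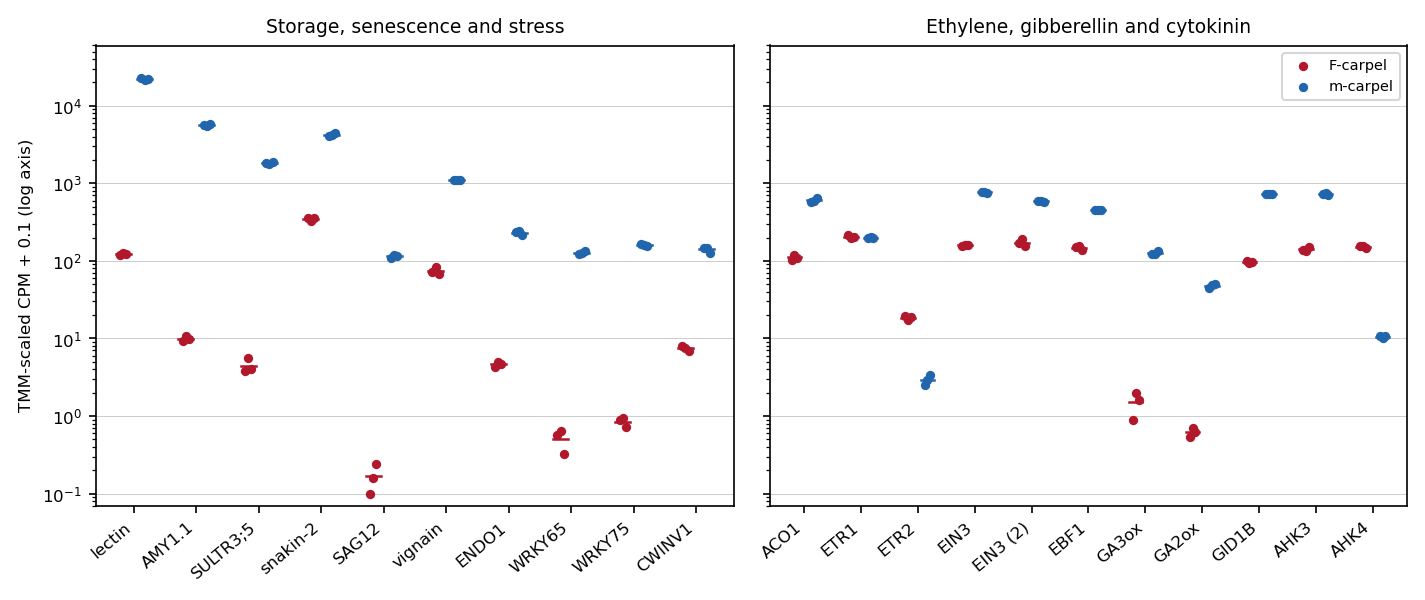
CPM plus 0.1 on a log axis for each library, F-carpel in red on the left and m-carpel in blue on the right of each gene, short lines are means. Left panel, genes of storage, senescence and stress. Right panel, genes of ethylene, gibberellin and cytokinin. All genes in the left panel lay lower in F-carpel, by up to 1630-fold for SAG12, and in the right panel ETR2 and AHK4 lay higher in F-carpel and the difference of ETR1 was not past the test.

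Genes known from cell death and ageing organs were called lower more often than higher. Of 82 tested 9 rose, 31 fell and 42 were not called, with a median of -0.81. SAG12 (LITCHI029047), a cysteine protease and marker of leaf senescence, had 0, 0.0595 and 0.139 CPM in F-carpel, against 110, 118 and 114 CPM in m-carpel (log2 fold change -10.67 ± 0.33, FDR = 6.22e-15), and averaged 20 ± 2.22 CPM in M-carpel (SD, n = 3). Vignain, a protease of dying cells, had 67.0 to 82.6 CPM in F-carpel and 1090 to 1110 CPM in m-carpel. The nuclease ENDO1 had 4.24 to 4.82 CPM in F-carpel and 217 to 240 CPM in m-carpel. Of 29 autophagy-related proteins, which recycle cell contents, 14 fell and none was called higher. Summed, they had 816 to 865 CPM in F-carpel and 1830 to 1850 CPM in m-carpel. The 9 that rose included the xylem proteases XCP1 and XCP2, metacaspase-9 and ribonuclease 1, genes of vessel formation and phosphate supply in Arabidopsis. XCP2 had 36.7 to 40.3 CPM in F-carpel and 0.966 to 1.29 CPM in m-carpel.

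The WRKY, NAC and ERF families were marked out after the values were seen, and the difference between them was not tested. Of 58 tested WRKY factors 38 fell and 5 rose, and their summed level was 1340 to 1410 CPM in F-carpel, against 7020 to 7180 CPM in m-carpel. WRKY75 (LITCHI020315), a senescence and phosphate factor in Arabidopsis, had 0.788, 0.832 and 0.612 CPM in F-carpel, against 166, 162 and 157 CPM in m-carpel. WRKY65 had at most 0.535 CPM in F-carpel and 124 to 133 CPM in m-carpel. NAC factors were even by count, with 18 higher and 18 lower of 72, but not by level, at 1160 to 1200 CPM in F-carpel and 6900 to 7340 CPM in m-carpel in sum. Of 63 ERF factors 15 rose and 25 fell. Defence proteins were even as well, with 43 of 133 higher and 41 lower. A thaumatin-like protein (LITCHI023086) had 355 to 402 CPM in F-carpel and at most 0.386 CPM in m-carpel, and an acidic beta-1,3-glucanase (LITCHI008779) 13 to 14.1 CPM in F-carpel and 497 to 537 CPM in m-carpel.

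The most abundant transcripts of m-carpel were lectins, sugar-binding proteins that often serve as stores. The mannose/glucose-specific lectin LITCHI028104 had 119, 126 and 123 CPM in F-carpel, against 22800, 21400 and 22000 CPM in m-carpel, and a second locus of that description 312 to 398 CPM in F-carpel, against 29100 to 30600 CPM in m-carpel. With the loci that held at least 1% of a library left out, 9456 loci were called, against 9451 with them. In M-carpel the lectin LITCHI028104 had a mean of 2360 ± 37.2 CPM (SD, n = 3). A locus described as an alpha-amylase (LITCHI010992), which breaks down starch, had 9.21, 10.6 and 9.73 CPM in F-carpel, against 5670, 5500 and 5900 CPM in m-carpel. Its log2 fold change was -9.18 ± 0.07 (FDR = 8.84e-22). The NR match of this locus was a low-quality pentatricopeptide repeat protein, so the enzyme name is uncertain. The sulfate transporter SULTR3;5 had 3.67 to 5.47 CPM in F-carpel and 1780 to 1890 CPM in m-carpel.

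In F-carpel the most abundant loci by FPKM were a type 2 metallothionein (LITCHI024888), with 5610 ± 115 FPKM in F-carpel and 8150 ± 280 FPKM in m-carpel, and a new gene with no description, with 3070 ± 451 FPKM in F-carpel and 62.5 ± 54.7 FPKM in m-carpel (SD, n = 3 each). This new gene varied among m-carpel libraries, at 3.19, 97.9 and 69.2 CPM. A locus described in the table as induced by abscisic acid, senescence and ripening (LITCHI011490) had 1540 ± 156 FPKM in F-carpel and 311 ± 9.19 FPKM in m-carpel.

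Sugar genes were called in each direction, with 10 of 69 higher and 28 lower. Sucrose synthases, which keep the energy of the sucrose bond, had 4 of 7 loci higher and 1 lower. The most abundant one (LITCHI017476) had 2090, 2280 and 2010 CPM in F-carpel, against 284, 284 and 290 CPM in m-carpel (log2 fold change 2.90 ± 0.04, FDR = 8.25e-19), while SUS2 (LITCHI026481) had 166 to 174 CPM in F-carpel and 665 to 731 CPM in m-carpel. Cell wall invertases, which split sucrose outside the cell, had 5 of 7 loci lower and none called higher, with CWINV1 at 6.75 to 7.94 CPM in F-carpel and 128 to 147 CPM in m-carpel. A soluble acid invertase (LITCHI009111) rose, with 83.3 to 86.8 CPM in F-carpel and 4.22 to 7.02 CPM in m-carpel. Of 10 alkaline and neutral invertases 3 fell and 7 were not called. Monosaccharide carriers of the sugar transport protein family (7 of 13 lower) and sucrose carriers (4 of 7 lower) had no member called higher. SWEET transporters were even, with 4 higher and 5 lower of 14.

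Terpene synthases, which make volatile compounds, had the highest median of any list, 4.21, with 13 of 25 tested loci higher and 2 lower, but 4 higher among loci with a mean of 5 CPM or more. Most were at low levels. The alpha-farnesene synthase LITCHI016232 had 22.7, 20.5 and 23.2 CPM in F-carpel and no count in m-carpel, at least 646-fold higher over the floor, while another (LITCHI029350) had 7.56 to 8.18 CPM in F-carpel and 38.1 to 39.8 CPM in m-carpel. The summed level of the farnesene synthases was close, 53.2 to 55.6 CPM in F-carpel and 44.8 to 47.9 CPM in m-carpel. Several of these loci carry near-identical descriptions and neighbouring identifiers, so reads may be split. The geranyllinalool synthase LITCHI029255 rose by a log2 fold change of 2.57.

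Genes of the tapetum and pollen list moved with the comparison and are given as values. Of 40 tested tapetum and pollen genes 22 fell and 4 rose in F-carpel, and 8 fell among those with a mean of 5 CPM or more. Their summed level was 836 to 912 CPM in F-carpel and 578 to 649 CPM in m-carpel, because 1 member, described as pollen-specific protein C13 (LITCHI010442), had 530 to 586 CPM in F-carpel and 91.8 to 104 CPM in m-carpel. The same list summed to 7430 to 7820 CPM in F-stamen and 11700 to 12000 CPM in m-stamen. The pollen marker LAT52 (LITCHI013059) had 7.61, 9.25 and 8.12 CPM in F-carpel, against 19.6, 17.1 and 23.9 CPM in m-carpel, which were 0.446% of its mean in F-stamen and 0.789% of that in m-stamen. For the 5 most abundant stamen markers these shares were 0.42 to 2.68% in F-carpel and 0.651 to 3.41% in m-carpel. The tapetum gene CYP703A2 had at most 0.109 CPM in F-carpel and 1.61 to 3.58 CPM in m-carpel. Its mean was 2.5 CPM in m-carpel and 1.62 CPM in m-stamen, so not every listed gene was far below its stamen level. Likewise the means in m-carpel and m-stamen were 11.2 and 2.07 CPM for the polyketide synthase PKSA (LITCHI025403). They were 55.3 and 26.3 CPM for CYP704B1, and 6.92 and 0 CPM for 4CLL1 (LITCHI004650). The other members that rose were QRT3 (log2 fold change 7.44), TKPR1 (1.41) and a locus described as ABORTED MICROSPORES (LITCHI004937), with 3.75 to 4.31 CPM in F-carpel and no count in m-carpel. Another locus of that description, LITCHI002043, fell by 3.41 on the log2 scale, a call lost with DESeq2, with only the compared organs in the fit and with limma on log2(FPKM + 1). The part of stamen transcripts in the results above was not tested.

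The carpels of the other male flower type were not between the organs for every gene. CRC was higher in M-carpel than in m-carpel (log2 fold change 4.42 ± 0.23), and so was LcPI (4.2 ± 0.14), while LcSTK was lower (-2.84 ± 0.20). LITCHI010992, described as an alpha-amylase, was lower as well (-2.63 ± 0.05), and each of these was past the same threshold. These values come from the same fit and share the m-carpel libraries with the comparison above. By mean CPM in M-carpel, CRC, LcPI and SPATULA (169 ± 5.96 CPM) lay above either organ, and LcSTK lay below either. LcMADS91 (317 ± 2.2 CPM) and LITCHI010992 (922 ± 30.3 CPM) lay between the organs (SD, n = 3 each).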

How the data were processed

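Carpels and stamens of 3 flower types were sequenced as 18 paired-end libraries, 3 for each of 6 organs. The authors trimmed reads with Trimmomatic and removed ribosomal reads. The submitters' processing notes name HISAT2 2.0.4 and StringTie. No source used here names the genome build. The deposited table holds raw read counts per gene model. It also holds FPKM values. The paper names Cufflinks for expression values and the processing notes name StringTie, so the tool behind the deposited FPKM values is not settled. Columns of the authors' own comparisons (FDR, log2 fold change, regulation) were not used. Each sample column was matched to its label, with letter case kept, and 0 were left over.

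Counts were summed over the models of a locus (2344 of 34024 loci have several). The edgeR 4.0.16 quasi-likelihood test in R 4.3.3 was fitted to all 18 libraries with 6 organs, after filterByExpr and TMM (factors 1.119 to 1.168 in F-carpel, 0.9682 to 0.9907 in m-carpel). P-values were adjusted by Benjamini-Hochberg over all 24666 loci tested, of which 614 had no count in the 6 libraries compared. SE is the log2 fold change over the root of F. FPKM values were used only to rank abundance and with limma 3.58.1. DESeq2 1.42.0 and other alternatives are given below. On simulated counts for this comparison, edgeR recovered 94% of 200 changed loci among 21255 tested, with 1 false call, 86.4% at a log2 change of 1.5 and 100% at 3. The counts were drawn with the fitted spread. The changed loci were taken only above a minimum level, and every other locus kept its m-carpel mean in all 18 libraries. In the data 38.3% of loci were called. The simulation therefore does not measure the accuracy of calls at low counts or under so broad a shift.

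The members and gene lists were chosen with earlier results of these data known. Named genes are the ABCDE genes and every other called MADS-box locus, the 10 largest rises and falls above a floor of 5 in mean log2 CPM, the 2 largest of each direction per list above a floor of 3, the 5 most abundant loci per organ and 5 stamen markers. Some of these are left out of the text. Further genes and the families within lists were chosen after their values were seen. Gene names are those of the best Swiss-Prot match, found for 23439 loci. Reads of near-identical copies may have been split. No source used here states the library strand, so antisense or overlapping genes cannot be told apart.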

Additional observations from a re-analysis of the deposited data

How the results depend on the processing

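Under 19 alternatives 6362 to 14674 loci were called, against 9451. Leaving out each library in turn gave 9082 to 9136 calls, of which 4821 to 5071 were higher and 4037 to 4276 lower in F-carpel. Without a minimum fold change 14674 loci were called and 7329 were lower. Among loci averaging 5 CPM or more 2762 were lower, which tests fewer loci (15208), and with limma on log2(FPKM + 1) 2666 were lower. DESeq2 called 9701 loci, RLE factors 9440, and the replicate number as a block 9264. Numbers did not pair libraries, because deviations of same-numbered libraries correlated at -0.0104 to 0.0271 and not every library correlated best with its own number, and no named gene lost its call under the block. Of the calls, 53.8% were higher in F-carpel, and 62.5% were with library totals without TMM, 64.4% with limma on log2(FPKM + 1) and 63.7% with limma on log2(FPKM + 0.1); the cause was not tested.

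Counts in the lists were moved by over 1.5 times in 66 of 1064 cases, 26 of them with the 5 CPM minimum and 17 with log2(FPKM + 1). Lower counts of MADS-box genes went to 6 under these and with only the compared organs in the fit. Tapetum and pollen genes called lower numbered 8 with the 5 CPM minimum and 10 with log2(FPKM + 1).

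Uncalled genes near 0 changed sign. LcMADS100 (LITCHI019333) had 0.14 with library totals, 0.01 with the 5 CPM minimum and 0.15 on either FPKM scale. An abundant new gene without a description had 0.12 with library totals, -0.31 to 0.38 with a library left out (the highest without m-carpel replicate 3) and 0.22 on either FPKM scale. LITCHI022403, described as MYB98, ranged over -2.24 to 1.18 with a library left out, the lowest without F-carpel replicate 2. No called gene named here reversed. Depth limits loci at a few counts, and some named calls at low levels were lost when a library was left out, as was that of LcMADS94 (LcSEP2), at 88 to 389 counts.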

Other observations

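KEGG pathways, which the report did not use, add groups of loci. Of the pathways with at least 30 tested loci, DNA replication had 30 of 53 loci higher and 2 lower in F-carpel (median log2 fold change 1.32), and purine and pyrimidine metabolism 51 of 163 and 41 of 126 higher against 7 and 4 lower. Homologous recombination had 18 of 40 loci higher and 4 lower. The synthesis of phenylalanine, tyrosine and tryptophan had 23 of 48 loci higher and 8 lower (median 1.00). The citrate cycle had 22 of 76 higher and 5 lower. At the other end, the regulation of autophagy had 1 of 31 higher and 14 lower (median -0.84), phosphatidylinositol signalling 5 of 62 higher and 17 lower, and plant-pathogen interaction 22 of 176 higher and 57 lower. Loci can belong to several pathways, and these counts are descriptions to be read against 20.6% higher and 17.7% lower of all loci.

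Of 32 tested aquaporins, water channels, 8 rose, 4 fell and 20 were not called. The share called, 37.5%, was close to the 38.3% of all tested loci. The tonoplast channel TIP3-1 (LITCHI001953) had 43.7, 45.6 and 38.0 CPM in F-carpel, against 2.67, 1.79 and 2.78 CPM in m-carpel. The plasma membrane channel PIP2-5 (LITCHI027284) had 2.23, 2.41 and 2.39 CPM in F-carpel, against 60.6, 72.4 and 68.7 CPM in m-carpel.

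Of 57 tested photosynthesis genes 10 rose and 14 fell, a share called of 42.1%, against 38.3% of all tested loci. Their summed level was 2110 to 2460 CPM in F-carpel and 3440 to 3710 CPM in m-carpel. A Rubisco small subunit (LITCHI016391) had 99.5, 110 and 90.3 CPM in F-carpel, against 5.35, 3.71 and 3.04 CPM in m-carpel. Rubisco activase (LITCHI027700) had 35.2, 39.7 and 28.6 CPM in F-carpel, against 232, 248 and 242 CPM in m-carpel.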
